A study of Drosophila melanogaster with 6 samples.

Results

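The genes described here encode 5 nuclear proteins that set the output of Notch signalling at its target genes: the coactivator gene *mam* and the corepressor genes *H*, *gro*, *CtBP* and *insv*. They were taken by gene symbol from the platform annotation, which gave 8 probe sets among the 14010 on the array (5 of 10845 genes named there). Of these 8 probe sets, 7 entered the test described below and 1, for *mam*, was Present on no array.

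Wing discs, from which the wing and notum of the adult fly develop, were dissociated late in larval life from *Drosophila melanogaster* with the E(spl)m4-GFP reporter. E(spl)m4 is active in proneural clusters, the cell groups from which sensory organ precursors are singled out, and all cells brighter than discs of the w1118 strain formed the GFP-positive group. Each GFP-negative sample held 100000 cells below that threshold, from the same kind of disc, so both groups carry the reporter and the w1118 discs were only used to set the gate. There were 3 GFP-positive and 3 GFP-negative samples of about 200 discs each, with 1 Affymetrix array per sample. The sex of the larvae and the number of GFP-positive cells sorted are not given in the labels, and they do not state that the replicates were dissected independently, so the spread behind each p-value may be technical.

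Without a signal, the DNA-binding protein Su(H) sits at Notch target genes together with Hairless (*H*), an adaptor that recruits the corepressors Groucho (*gro*) and CtBP and so keeps the targets off. When Notch is activated its intracellular domain enters the nucleus, replaces Hairless on Su(H) and is joined by Mastermind (*mam*), which brings in the transcription machinery. Insensitive (*insv*) is a nuclear protein with a BEN domain, known in *Drosophila* as a corepressor that works with Su(H) in the developing peripheral nervous system. Groucho is used a second way in the same cells, because the bHLH repressors made by the E(spl) genes, themselves Notch targets, recruit it through a short peptide at their end.

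The arrays called between 4321 and 5039 probe sets Present, and the lowest signal called Present lay between 29.4 and 36.8 units. The sort was checked on the gene of the reporter, *E(spl)m4-BFM*, which was Present on 3 of 3 GFP-positive and 0 of 3 GFP-negative arrays. Among markers of other cells, the summed signal of 5 genes of the adult muscle precursors, mesodermal cells beneath the notum, ran from 896.4 to 989.2 units in GFP-positive and from 2249.1 to 2607.7 in GFP-negative samples. In this list *Him* and *htl* fell (at least 13.2-fold and 8.38-fold), while no array called *twi* or *zfh1* Present, although both were brighter in GFP-negative cells (558 ± 41.7 against 51.3 ± 17.8 units for *twi*). *sns*, also of this list and Present on all 6 arrays, made up most of the GFP-positive sum, with 761.8 ± 81.3 units in GFP-positive against 532 ± 119 in GFP-negative samples (log2 0.53, adjusted p = 0.360). For 5 hemocyte genes the ranges overlapped, at 445.4 to 617 and 421.2 to 832 units, with *Hml* and *NimC1* Present on no array. For 4 glial genes they were 1089.6 to 1579.8 and 566.1 to 802.8 units, for 3 tracheal genes 4577.5 to 5861.7 and 3098.8 to 3970.5, and for 4 genes of the disc epithelium 5158.5 to 8247.9 and 4224.1 to 5886.9. Most of the glial sum was *loco*, with 1056 ± 210 against 439 ± 129 units. It rose (at least 2.38-fold, adjusted p = 0.0297, but 0.0810 with no filter and 0.0871 with lot as a block). The call was lost without GFP-negative array 1 or 2 (adjusted p = 0.0585 and 0.141) or GFP-positive array 3 (0.0591). Without GFP-positive array 1 or 2, and in the day 2 arrays, *loco* no longer entered the test. The glial gene *repo* did not pass (adjusted p = 0.937). Nearly all of the tracheal sum was *verm*, with 5098 ± 536 against 3349 ± 558 units (adjusted p = 0.218), while *btl* and *serp* were Present on no array. The epithelial genes *vg* and *ap* were Present on all 6 arrays and *nub* and *rn* on none. *rn* nevertheless added 1603 ± 59.4 units to the GFP-positive and 1033 ± 258 to the GFP-negative sum. Most of the epithelial sum was *vg*, with 4552 ± 1681 against 3808 ± 675 units (adjusted p = 0.793). *ap* had 193 ± 20.4 against 216 ± 73.6 units (adjusted p = 0.905). The part of such a difference in cell types in the results below was not tested, and in sorted pools fewer cells of a type and less RNA per cell cannot be told apart.

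*insv* was the member that rose. Its probe set, 145649_at, had signals of 550.3, 463.2 and 565.3 units on GFP-positive arrays 1, 2 and 3, and of 74.1, 70.5 and 49.0 on GFP-negative arrays 1, 2 and 3. All GFP-positive signals lay far above all GFP-negative signals, and each group kept within a narrow range. The deposited detection p-values were 0.0129, 0.0320 and 0.00459 on the GFP-positive arrays, all called Present, and 0.365, 0.438 and 0.611 on the GFP-negative arrays, all called Absent. The means were 526 ± 55.1 (SD, n = 3) and 64.5 ± 13.6 (SD, n = 3) units, and *insv* was at least 6.78-fold higher in GFP-positive cells. This and every other "at least" is a bound with respect to detection only: signals of the dimmer group below the lowest Present signal of their array are raised to it, and neither the spread between arrays nor the offset of 16 units added before taking log2 is allowed for. For *insv* no GFP-negative signal was that low, so the bound equals the fitted log2 difference of 2.76 (SE 0.263, 95% interval 2.18 to 3.35, or 4.52-fold to 10.2-fold), which was 2.20 with an offset of 64.

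The limma adjusted p of *insv* was 0.000363, which ranked 12 by p among 4943 tested probe sets. In all, 1 of the 7 tested member probe sets rose, beside 1.25% of all tested probe sets, and 0 fell, beside 1.74%; 2.99% changed in either direction. *insv* entered the test through the GFP-positive arrays alone, and of the 72 tested probe sets with no Present call in GFP-negative cells 33.3% changed. With no detection filter its adjusted p was 0.00579. The log2 difference was 2.65 in the pair of day 1 and 2.82 in the 4 arrays of day 2 (adjusted p = 0.00494). It was 2.68 in the lot of 3 arrays and 3.16 in the lot of 2 arrays, where no test was made. *insv* was placed among these genes with its rise in these samples known, so the rise is not independent evidence of a role in these cells.

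**Figure D1:**
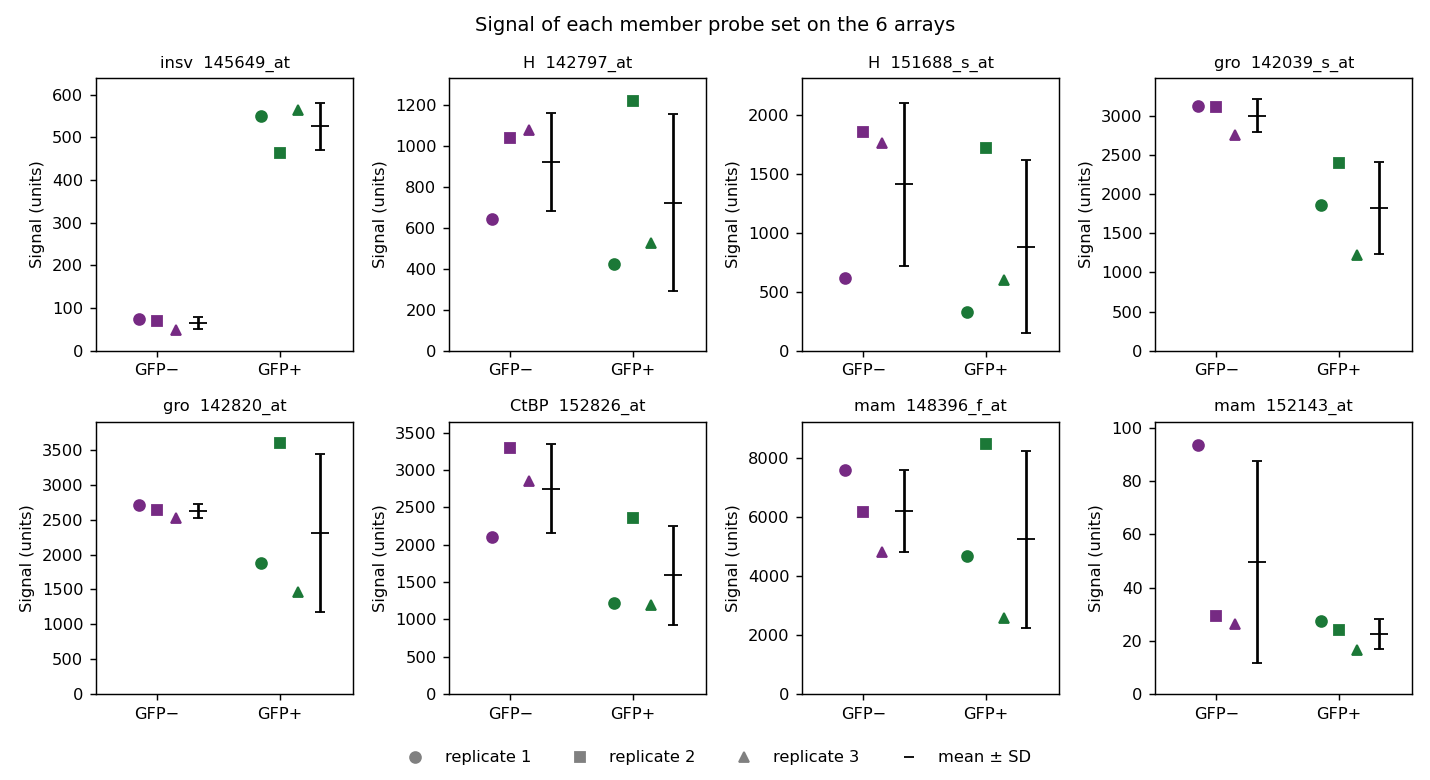
Signal in array units of each of the 8 probe sets in GFP-negative (GFP−) and GFP-positive (GFP+) cells, with a symbol for each replicate and bars for the mean ± SD of 3 arrays; each panel has its own axis from 0, and levels of different probe sets cannot be compared. The GFP-positive signals of *insv* (463.2 to 565.3) stand above its GFP-negative signals (49.0 to 74.1), and GFP-positive replicate 2 is the highest GFP-positive array for both probe sets of *H* and of *gro*, for *CtBP* and for *mam* 148396_f_at.

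The corepressors that Hairless recruits had lower mean signals in GFP-positive cells, but in the fit by group none of their probe sets passed the threshold. *CtBP*, a corepressor related to dehydrogenases, had signals of 1223.1, 2355.6 and 1189.5 units on GFP-positive arrays 1, 2 and 3. On GFP-negative arrays 1, 2 and 3 they were 2107.0, 3298.0 and 2851.2 units. Both GFP-positive replicates 1 and 3 lay below every GFP-negative array, while GFP-positive replicate 2 lay above GFP-negative replicate 1. The means were 1589 ± 664 and 2752 ± 602 (SD, n = 3), with a log2 difference of -0.84 (SE 0.302, 95% interval -1.51 to -0.17, unadjusted p = 0.0193, limma adjusted p = 0.230). Compared within replicate numbers, the GFP-positive signal of *CtBP* was 0.580, 0.714 and 0.417 times the GFP-negative one, lower in 3 of 3 pairs. With the replicate number as a block the adjusted p was 0.0473, so the call for *CtBP* rests on that pairing; blocking by hybridization day gave 0.0985 and blocking by lot 0.0653 (log2 difference -1.16). Within batches the log2 difference was -0.78 in the day 1 pair, -0.87 in day 2 (adjusted p = 0.311), -1.10 in the lot of 3 and -1.25 in the lot of 2 arrays.

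*gro*, which encodes a WD-repeat corepressor without a DNA-binding domain of its own, was measured by 2 probe sets that did not give the same picture. Probe set 142039_s_at had signals of 1859.6, 2393.2 and 1224.5 units on GFP-positive arrays 1, 2 and 3, and of 3133.1, 3117.5 and 2757.1 on GFP-negative arrays 1, 2 and 3. Its groups did not overlap, and it was the one member probe set other than *insv* of which this was true. Non-overlap in the lower direction occurred in 11.4% of tested probe sets, and in the higher direction, as for *insv*, in 9.43%. The log2 difference of 142039_s_at was -0.76 (SE 0.262, 95% interval -1.35 to -0.18, unadjusted p = 0.0153, limma adjusted p = 0.201, or 0.0695 with the replicate block). Within batches it was -0.75 in the day 1 pair, -0.77 in day 2 (adjusted p = 0.356), -0.74 in the lot of 3 and -1.16 in the lot of 2 arrays.

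Probe set 142820_at of *gro* had signals of 1878.7, 3603.1 and 1460.6 units on the GFP-positive arrays and of 2711.4, 2648.3 and 2520.3 on the GFP-negative arrays. Here GFP-positive replicate 2 was the brightest of all 6 arrays and the other GFP-positive arrays were the dimmest, so the groups overlapped. The log2 difference was -0.29 (SE 0.309, 95% interval -0.97 to 0.40, adjusted p = 0.739), with -0.53 in the day 1 pair, -0.17 in day 2, -0.51 in the lot of 3 and -0.78 in the lot of 2 arrays. On each array, the log2 signal of 142039_s_at minus that of 142820_at lay between 0.13 and 0.23 in GFP-negative cells and between -0.59 and -0.01 in GFP-positive cells. The shift of -0.47 had a two-sided exact permutation p of 0.1, the smallest that 3 arrays against 3 allow (0.2 after adjustment over the 2 genes compared in this way, after their values were seen). In Affymetrix naming an s marks a probe set whose probes are shared by several transcripts, and which transcripts of *gro* each probe set measures was not tested.

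*H*, the adaptor gene, varied more between arrays of a group than between groups. Probe set 142797_at had signals of 424.8, 1222.4 and 527.8 units on GFP-positive arrays 1, 2 and 3, and of 646.1, 1040.8 and 1081.3 on GFP-negative arrays 1, 2 and 3. Probe set 151688_s_at had 329.2, 1718.4 and 601.0 units in GFP-positive cells and 614.6, 1859.6 and 1760.6 in GFP-negative cells. In both probe sets the groups overlapped, and the array hybridized on day 1 was the lowest of its group in GFP-positive as in GFP-negative cells, a pattern found in 17.7% of tested probe sets. The log2 differences were -0.46 (95% interval -1.29 to 0.38, adjusted p = 0.652) and -0.84 (95% interval -2.10 to 0.43, adjusted p = 0.577), intervals that include no change as well as a fall to under 0.5 of the GFP-negative level. The 2 probe sets of *H* differed in their shift by 0.38 (exact permutation p = 0.4). In the day 1 pair the log2 differences were -0.59 and -0.87, in day 2 -0.39 and -0.82, in the lot of 3 arrays -0.92 and -1.66, and in the lot of 2 arrays -1.01 and -1.53. With day as a block the adjusted p-values were 0.450 and 0.204, and with lot as a block 0.136 and 0.0878.

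*mam*, the coactivator gene, had 2 probe sets with unlike results. Probe set 148396_f_at had signals of 4684.3, 8483.2 and 2572.7 units on GFP-positive arrays 1, 2 and 3, and of 7610.8, 6184.0 and 4807.4 on GFP-negative arrays 1, 2 and 3. The GFP-positive arrays spanned both the highest and the lowest of the 6 values, so the groups overlapped over their whole range. The log2 difference was -0.38 (SE 0.381, 95% interval -1.23 to 0.47, adjusted p = 0.717), and without GFP-positive replicate 3 it was 0.049, in the other direction (adjusted p = 0.967). It was -0.70 in the day 1 pair, -0.22 in day 2, -0.55 in the lot of 3 and -0.90 in the lot of 2 arrays. Probe set 152143_at was called Absent on all 6 arrays, with signals of 16.5 to 27.5 units in GFP-positive and 26.3 to 93.4 in GFP-negative cells, so it gives no comparison. In Affymetrix naming an f marks a probe set whose probes match a family of sequences, so the signal of 148396_f_at may include RNA of other genes, and how much was not tested.

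**Figure D2:**
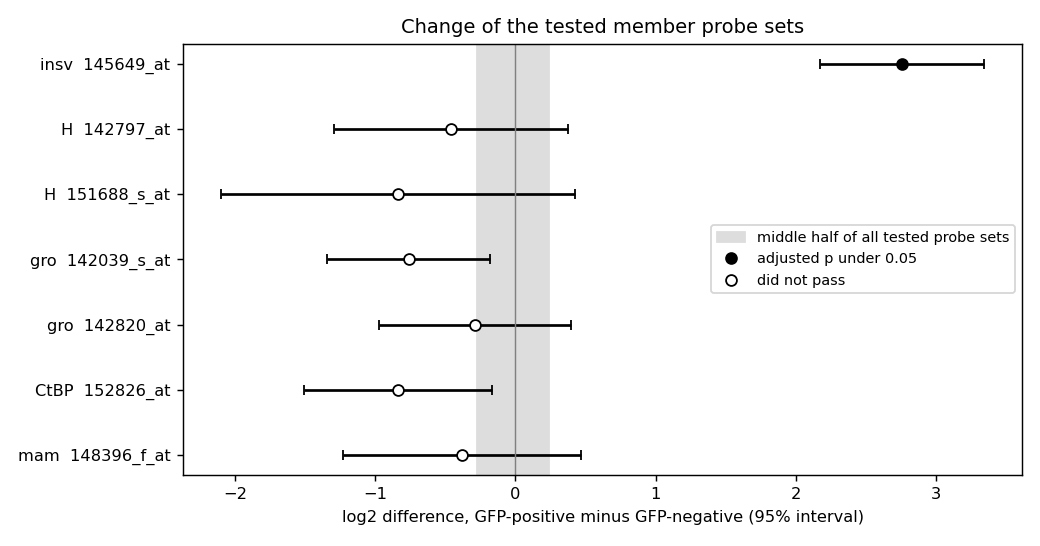
Log2 difference, GFP-positive minus GFP-negative, of the 7 tested member probe sets with 95% intervals from limma; filled points passed an adjusted p of 0.05, open points did not, and the grey band spans the quartiles of all 4943 tested probe sets (-0.27 to 0.24). *insv* stands at 2.76 and the other 6 lie between -0.84 and -0.29, with intervals that leave out 0 for *gro* 142039_s_at and *CtBP*.

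The change of *insv* was set against that of the other members on the same arrays. The log2 signal of *insv* minus that of each other tested member probe set shifted upward by values from 3.05 against *gro* 142820_at to 3.60 against *CtBP* and against *H* 151688_s_at. Each of the 6 had a two-sided exact permutation p of 0.1 (0.1 after adjustment), the smallest that 3 arrays against 3 allow. All 6 use the same *insv* values, and *insv* entered through the arrays where it is high, so they are a description and give no support.

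Pair by pair, the log2 differences of replicate 2 had the other sign for *H* 142797_at (0.23), *gro* 142820_at (0.44) and *mam* 148396_f_at (0.46), and were -0.11 for *H* 151688_s_at and -0.38 for *gro* 142039_s_at.

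The 6 other tested probe sets, which cover 4 genes, were Present on all 6 arrays, so none of them entered through 1 group alone. All 6 had a negative log2 difference, beside 51.4% of the 3567 probe sets that were Present on all 6 arrays, and their median was -0.61 beside -0.01. None passed, beside 1.82% of those 3567, and 2 had an unadjusted p under 0.05, beside 12.3%. Probe sets of the same gene share their RNA and are not separate observations.

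The same 6 probe sets also shared a pattern among the GFP-positive arrays. In all 6, GFP-positive replicate 2 was the highest of the 3, beside 32.6% of probe sets Present on all arrays, and their SD of log2 signals over the GFP-positive arrays was larger than that of 82.0% (*gro* 142039_s_at) to 99.5% (*H* 151688_s_at) of all tested probe sets. *insv* did not share it, with GFP-positive replicate 2 the lowest of its group. In the GFP-negative arrays both *gro* probe sets were among the steadier ones, with a smaller SD than all but 10.8% and 2.99% of tested probe sets. GFP-positive replicate 2 was the one array of its lot, so this sample and that lot cannot be told apart. Without it the log2 differences were -1.16 for *CtBP* (adjusted p = 0.0652), -0.98 and -0.66 for *gro* 142039_s_at and 142820_at (0.107 and 0.219), -0.90 and -1.47 for *H* 142797_at and 151688_s_at (0.186 and 0.198), and -0.81 for *mam* 148396_f_at (0.275). None of these passed, and that of *insv* was 2.85 (adjusted p = 0.00371).

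**Figure D3:**
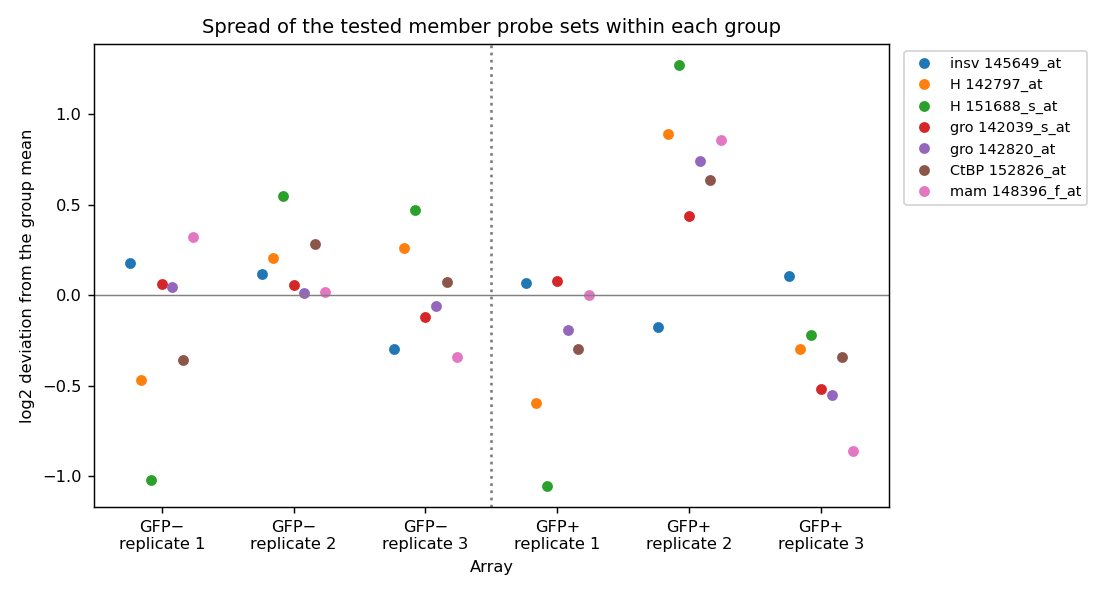
Deviation of each tested member probe set from the mean of its group, in log2 units, on each of the 6 arrays (GFP−, GFP-negative; GFP+, GFP-positive). On GFP-positive replicate 2 the 6 probe sets of *H*, *gro*, *CtBP* and *mam* lie 0.44 to 1.27 above the group mean and *insv* lies at -0.17, and both *H* probe sets are low on replicate 1 of each group.

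The genes closest to each member over the 6 arrays were found by the root mean square distance between log2 signals, each centred on its own mean. For *insv* they were *GstZ2*, a glutathione S-transferase gene, at 0.20 log2 units, *cpo*, an RNA-binding protein gene of the peripheral nervous system, at 0.26, and *phyl*, an adaptor gene of sensory organ precursors, at 0.31. *GstZ2* was at least 6.15-fold and *cpo* at least 4.92-fold higher in GFP-positive cells, and *phyl* had a log2 difference of 3.15. For *CtBP* the closest was *bib*, a neurogenic gene that encodes a membrane channel protein, at 0.08 (log2 difference -0.78, adjusted p = 0.276), followed by *put* and *Pfas*. For *gro* 142039_s_at they were *mrn*, *PolE1* and *Tdg*, for *gro* 142820_at *PH4alphaNE2*, *smash* and *emb*, for *H* 142797_at *tud*, *Crag* and *CG17233*, for *H* 151688_s_at *dsd*, *Cf2* and *CG12054*, and for *mam* 148396_f_at *Swip-1*, *CG12194* and *CG31688*, at distances of 0.09 to 0.25. None of these neighbours of the other 6 probe sets passed the threshold. Likeness over the same 6 arrays includes the difference between groups. This outcome and the rises of the genes closest to *insv* therefore largely follow from the choice.

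The partners of these proteins were described through lists of related genes. All lists were chosen with earlier results of these data known, so their counts are a description and give no support. Of 12 listed coactivators other than *mam*, 5 were tested and 0 rose or fell, beside 2.99% of all tested probe sets. Their median log2 difference was -0.18 beside -0.01 over all tested probe sets. By p the nearest were *Bre1*, a ubiquitin ligase gene for histone H2B, at -0.39, *kto*, a Mediator subunit gene, at -0.32 and *CycC*, a cyclin gene of the same Mediator module, at 0.21 (adjusted p = 0.663, 0.665 and 0.712). The acetyltransferase gene *nej* and the Mediator genes *skd* and *Cdk8* were Present on no array. *Su(H)* and *N* themselves were not analysed here, having no probe set under these symbols.

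Of 14 listed corepressor partners and chromatin enzymes, 9 were tested and 0 rose or fell. These 9 were Present on all 6 arrays, and 1.82% of all such probe sets changed. All 9 had a negative sign, beside 51.4% of probe sets Present on all 6 arrays, with a median of -0.32 and a range of -0.64 to -0.01. The lowest was *Su(var)3-3*, a histone demethylase gene, with 217 ± 60.8 units in GFP-positive against 338 ± 18.2 in GFP-negative cells (SD, n = 3; log2 -0.64, unadjusted p = 0.0380, adjusted p = 0.312). *CoRest*, the partner of that enzyme, had a log2 difference of -0.43 (adjusted p = 0.464), and *Smr*, a corepressor that also binds Su(H), of -0.45 (adjusted p = 0.580). *HDAC1*, a histone deacetylase that works with Groucho, was named after its values were seen and had signals of 5710 ± 1099 and 6120 ± 3072 units and a log2 difference of -0.01 (adjusted p = 0.997).

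None of the *Elba* genes in the list of *insv* relatives and insulator proteins could be tested. *Elba2*, which encodes another BEN-domain protein and follows *insv* directly in the RefSeq gene order, had signals of 169 ± 86.9 units in GFP-positive against 132 ± 46.5 in GFP-negative cells (SD, n = 3) and was Present on no array. *Elba3* was also Present on no array, with means of 12.2 and 9.60 units, and *Elba1* was not analysed here. The 5 tested genes of this list encode insulator proteins and were Present on all 6 arrays. A negative sign was found for 5 of 5, beside 51.4% of such probe sets, and 0 passed the threshold, beside 1.82%. *su(Hw)* had 859 ± 204 and 1811 ± 877 units (log2 -0.97, unadjusted p = 0.0207, adjusted p = 0.238, or 0.0289 with the replicate block), *BEAF-32* a log2 difference of -0.32 (adjusted p = 0.597) and *Cp190* of -0.51 (adjusted p = 0.678).

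The DNA-binding repressors that bring Groucho or CtBP to their targets included genes that fell. Of 21 listed, 17 were on the array and 6 were tested. Of these, 3 fell, beside 1.74% of all tested probe sets, and 0 rose. The median was -1.82, but -1.27 over the 4 Present on all 6 arrays and -0.19 over all 17 on the array. *h* (hairy, named *hry* in RefSeq), a bHLH repressor that recruits Groucho and limits proneural gene expression, had signals of 1102.8, 1058.4 and 656.8 units on GFP-positive arrays 1, 2 and 3, and of 4974.9, 3571.5 and 2744.9 on GFP-negative arrays 1, 2 and 3. Every GFP-positive signal of *hry* was below 0.5 of every GFP-negative signal, and it was Present on all 6 arrays. Its log2 difference was -1.98 (SE 0.288, limma adjusted p = 0.00436), between -2.18 and -1.74 without any 1 array, with adjusted p-values of 0.00546 to 0.0213.

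The homeobox genes *en* and *inv*, which mark the posterior compartment and whose proteins recruit Groucho, were lower, *en* by a log2 difference of -2.13 and *inv* at least 4.07-fold (adjusted p = 0.00165 for each). *inv* was Present on no GFP-positive array and had to be lower to enter the test through the GFP-negative arrays. Of the tested probe sets with no Present call in GFP-positive cells 10.6% changed. *knrl*, also Present on GFP-negative arrays only, had a mean of 89.4 ± 49.0 against 301 ± 94.8 units (adjusted p = 0.0557, and 0.00949 in the fit blocked by replicate), *zfh2* had a log2 difference of -0.57 (adjusted p = 0.403) and *Dr* one of -0.29 (adjusted p = 0.742).

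*gro* lies at the end of the E(spl) complex, where its neighbours include the bHLH genes, Notch targets whose products recruit Groucho. In RefSeq order the 12 genes before *gro* run from *E(spl)mdelta-HLH* to *E(spl)m8-HLH*, and 6 of them were tested. *E(spl)mdelta-HLH* (log2 2.17, adjusted p = 0.00165) and *E(spl)m7-HLH* (log2 1.62, adjusted p = 0.00914), which encode bHLH repressors, rose, as did *E(spl)m4-BFM*, the gene of the sorted reporter (at least 12.0-fold). The GFP-negative signals of *E(spl)m4-BFM* were 333.7, 326.9 and 48.0 units on arrays 1, 2 and 3. Its log2 difference was 3.58, but 2.77 without GFP-negative replicate 3, 2.62 in the day 1 pair and 5.35 in the lot of 2 arrays. None of the other 3 tested genes passed. *E(spl)mbeta-HLH*, another bHLH repressor gene, was at 0.01 (adjusted p = 0.997) and *E(spl)m3-HLH* at 0.51 (adjusted p = 0.444). *E(spl)malpha-BFM*, a Bearded-family gene, was at 0.93 (adjusted p = 0.144, and 0.0473 in the fit blocked by replicate). On the other side of *gro*, *Vps2*, *Sld5* and *CG14543* had log2 differences of -0.39, -0.26 and -0.04, and none passed. These neighbours were chosen for their place and not by the naming rule.

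**Figure D4:**
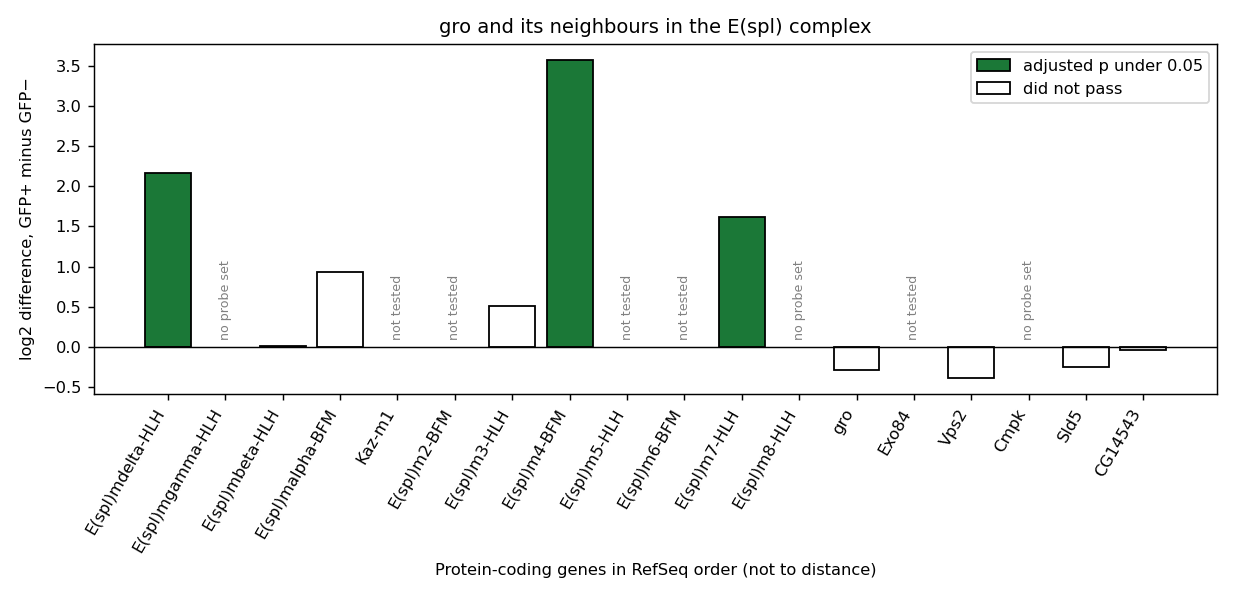
Log2 difference, GFP-positive (GFP+) minus GFP-negative (GFP−), of the tested probe set of each protein-coding gene around *gro* in RefSeq order, without scale of distance; filled bars passed an adjusted p of 0.05, open bars did not, and for *gro* the brighter probe set 142820_at is shown. *E(spl)mdelta-HLH*, *E(spl)m4-BFM* and *E(spl)m7-HLH* stand at 2.17, 3.58 and 1.62, while *gro* stands at -0.29; the value of *E(spl)m4-BFM* is fitted against signals not called Present.

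Over the whole list of Notch targets of lateral inhibition, 9 of 15 were tested. Of these, 5 rose, the gene of the reporter included, beside 1.25% of all tested probe sets, and 0 fell. The median was 1.48, but 0.72 over the 6 Present on all 6 arrays and 0.91 over all 12 on the array. The other 2 that rose were *Ocho* and *Brd*, both Bearded-family genes, *Ocho* at least 10.6-fold (adjusted p = 0.00558) and *Brd* with a log2 difference of 1.48 (adjusted p = 0.0322, but 0.110 with no filter and 0.112 with lot as a block). Without 1 array the adjusted p of *Brd* ran from 0.0453 to 0.129. *Ocho* had signals of 92.9, 186.7 and 20.6 units on GFP-negative arrays 1, 2 and 3. Its log2 difference was 3.53, but 2.30 in the lot of 3 arrays, 2.75 in the day 1 pair and 5.33 in the lot of 2 arrays. *Tom*, of the same family, had a log2 difference of -0.41 (adjusted p = 0.418). *Ocho* and *E(spl)m4-BFM* had no Present call in GFP-negative cells, and 33.3% of such tested probe sets changed. Among 20 listed proneural and precursor genes, 7 of the 11 tested rose, beside 1.25% of all tested probe sets, and 0 fell. Both lists were chosen with earlier results of these data known, so their counts are not independent evidence. A negative sign was found for 2 of the 11, *da* and *emc*. The median was 2.28, but 0.47 over the 4 Present on all 6 arrays, 1.55 over all 20 and 1.22 in the lot of 2 arrays. The smallest adjusted p-values were those of *meru* (at least 14.1-fold higher, 2.05e-05), *phyl* (log2 3.15, 0.000283) and *mira* (at least 6.17-fold higher, 0.000841), the last a gene of asymmetric cell division, followed by *cpo* (at least 4.92-fold higher, 0.00313) and *cato*, a bHLH gene of the peripheral nervous system (log2 2.28, 0.00887). The call of *cato* was lost with no filter (0.0520), in the day 2 arrays (0.0665) and without GFP-positive replicate 1 (0.0523), and its log2 difference was 1.12 in the lot of 2 arrays. Of these 11, *neur* and *sc* passed only with the replicate block (adjusted p = 0.0160 and 0.0383 against 0.0554 and 0.0926), and 6 entered through the GFP-positive arrays alone. Among these 6, *meru*, *mira* and *cpo* had no Present call in GFP-negative cells, as *insv* had none, a class in which 33.3% of tested probe sets changed. The other genes of the 6, *phyl*, *cato* and *sc*, had 1 Present call each there.

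**Figure D5:**
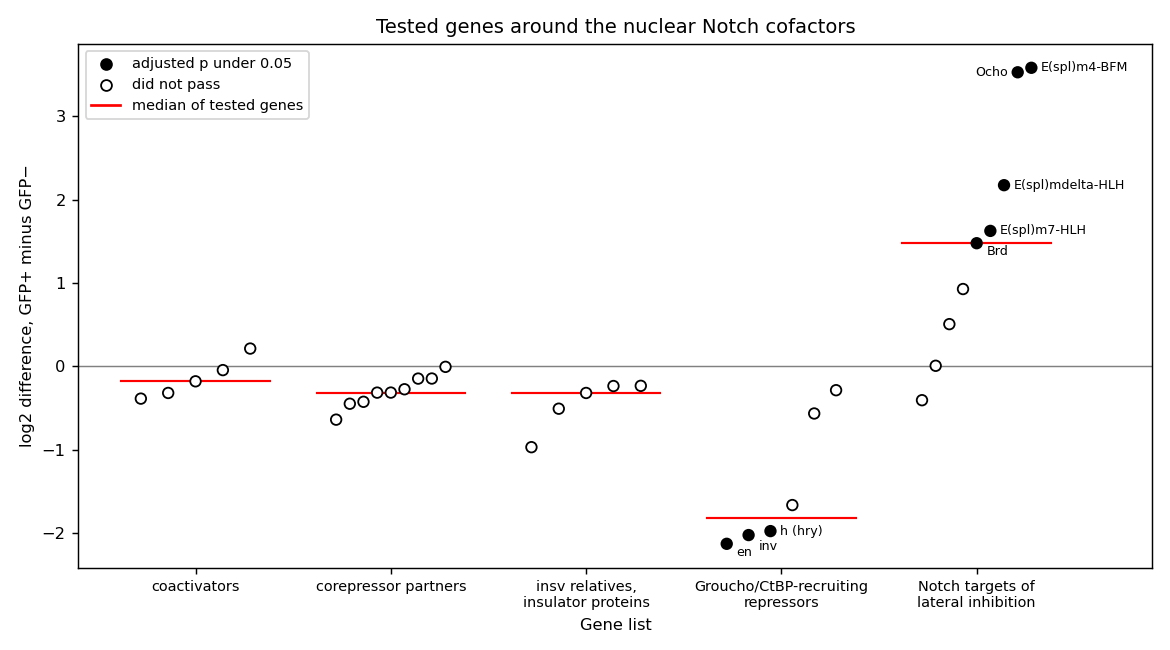
Log2 difference, GFP-positive (GFP+) minus GFP-negative (GFP−), of the tested genes of 5 lists around the nuclear Notch cofactors; each point is a gene, filled where the adjusted p was under 0.05, and red lines are list medians (-0.18, -0.32, -0.32, -1.82 and 1.48 from left to right). The called genes are 3 DNA-binding repressors and 5 Notch targets. The lists of coactivators, corepressor partners and insulator proteins hold 0 called of 5, 9 and 5 tested genes, beside 2.99% of all tested probe sets.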

How the data were processed

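Total RNA of each sample was hybridised to 1 Affymetrix Drosophila genome array. The deposited intensity values are the Signal of Affymetrix's statistical algorithm, scaled by the authors on each array over all probe sets to a target of 500 (per the file headers). Detection p-values, deposited beside them, and the calls Present, Marginal and Absent come from the same algorithm with Alpha1 0.04, Alpha2 0.06 and Tau 0.015, per the file headers. The deposited series table held the same signals, all 84060 equal within 1e-06 units. A genome build is not given in the sources used here, so coordinates were left out.

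Signals were used as log2(signal + 16), which understates changes of dim genes. The test took 4943 of 14010 probe sets (44 are controls), those with Present calls on 2 or more of the 3 arrays in either group, and was made with limma 3.58.1 in R 4.3.3 (lmFit, eBayes with trend, a term for group, two-sided, Benjamini-Hochberg over all tested probe sets, threshold 0.05). The procedure was tested on simulated data. A gene without a Present call in its dimmer group has a fold bound, set against the higher of its own signal and the lowest Present signal of each array. Genes were named through the platform annotation (1 symbol for 12443 probe sets, several for 327, none for 1196), with symbols updated from the RefSeq table (assembly Release 6 plus ISO1 MT). For a listed gene with several probe sets the brightest tested one was used.

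The numbers 1 to 3 in the sample titles were taken to pair the groups, because deviations from the group means correlated above 0.1 in each same-numbered pair (Pearson's r over probe sets 0.40, 0.10 and 0.12). The margin is small outside number 1: GFP-positive 3 correlated better with GFP-negative 2 (0.22), and GFP-positive 2 as well with GFP-negative 3 (0.098). The labels do not state a pairing, and the pair of number 1 was hybridised on another day than the other 4 arrays. Replicate number, hybridization day and array lot (lots of 3, 2 and 1 arrays) were tried as blocks, beside other offsets, filters and scalings and leaving out each array. The pairs of 1 array against 1 and the lot of 3 arrays were given as values without a test.

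The members and lists were chosen with earlier results of these data known. The genes named are all members, for each list the genes past the threshold (at most 5) and up to 3 others with the smallest p, and the 3 genes most like each member. *HDAC1*, the neighbours of *gro* and genes that could not be tested are named outside this rule, after their values were seen. The lists are those of coactivators, corepressor partners, *insv* relatives and insulator proteins, DNA-binding repressors, Notch targets, proneural genes, and markers of muscle precursors, hemocytes, glia, trachea and disc epithelium.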

Additional observations from a re-analysis of the deposited data

How the results depend on the processing

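The direction of *insv* and its call held in all 16 alternatives that tested it, with log2 differences of 2.20 to 3.03 (adjusted p from 3.74e-05 to 0.00579); in the lot of 2 arrays, with no test, it was 3.16, and the filter for Present on all 6 arrays left it out, so that 0 member probe sets changed there. The negative sign of *H*, *gro* and *CtBP* held in all 20 alternatives (the replicate 2 pair alone was not one of them), with the smallest adjusted p at 0.0695 for *gro*, 0.0878 for *H* and 0.0473 for *CtBP*, the last with the replicate block (log2 difference -0.84), where 2 member probe sets changed. The block changed no other call of a member. In the lot of 2 arrays the log2 differences of *gro* were -1.16 (142039_s_at) and -0.78 (142820_at). Leaving out 1 array moved the *mam* probe set 148396_f_at between -0.81 and 0.049 (adjusted p = 0.275 to 0.967), the last without GFP-positive replicate 3, and the cause was not tested.

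Over all probe sets 148 changed, of which 41.9% were higher. The count was 257 with the replicate block and 229 with day as a block, each including all 148, and 73 in the day 2 arrays. It fell to 97 when every probe set was tested and to 50 among those Present on all 6, where fewer were tested and other ones were adjusted together. Leaving out 1 array gave 69 (without GFP-negative replicate 2) to 147. Median scaling moved the median of all tested probe sets by -0.11 and the higher share of calls to 31.2%; *CtBP* then had a log2 difference of -0.95. The number of arrays, 3 per group, limits every value, and *insv* in GFP-negative cells and *mam* 152143_at were not well above background.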

Other observations

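Other DNA-binding repressors known to use CtBP or Groucho could not be tested. *sna*, a zinc finger repressor gene known to bind CtBP, had signals of 477 ± 177 units in GFP-positive against 123 ± 47.4 in GFP-negative cells (SD, n = 3) but was Present on no array. *zfh1* had 70.7 ± 36.7 and 312 ± 48.9 units and *dpn*, a bHLH repressor gene of neural precursors, 202 ± 84.6 and 102 ± 71.3 units, again with no Present call. *da*, which encodes the common partner of the proneural proteins, had 2589 ± 821 units in GFP-positive against 4505 ± 571 in GFP-negative cells (log2 -0.83, limma adjusted p = 0.145).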
